A study of Rattus norvegicus with 4 samples.

Results

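Solute carriers are membrane proteins that move amino acids, sugars, ions, metals, nucleotides, vitamins and lipid precursors across the plasma membrane and the membranes of organelles. The genes that encode them carry symbols that start with Slc and a family number. The family number groups carriers of related sequence, and most families prefer 1 kind of cargo. In oligodendroglial cells, carriers supply choline and fatty acids for membrane growth, lactate and glucose for energy, and cystine and other amino acids for glutathione and protein synthesis. The set described here holds the Slc genes expressed in the rat cell line OLN93, chosen by the mean read count that the authors give per gene over the libraries. A gene entered with a mean of 100 or more and a symbol found on only 1 row. Of 348 such symbols, 141 entered, with means from 101 to 7570 and a median of 603. Just inside the threshold lay Slc25a42 at 101, Slc17a5 at 105 and Slc25a45 at 112, and just outside lay Slc18b1 at 95, Slc8a3 at 93 and Slc17a6 at 89. The choice used the level over the libraries and not the difference between the groups.

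OLN93 is a spontaneously immortalized line of the oligodendroglial lineage, grown in DMEM with serum. The Sox10-deficient group consisted of clones A and B, each a single CRISPR/Cas9-edited cell clone made with its own guide RNAs against Sox10, a transcription factor that directs oligodendroglial development. The 2 control libraries carry the label Sox10-positive. The labels call them biological replicates, while the methods of the study call them clones. In bulk RNA of this kind, fewer cells that express a gene and less of its RNA per cell cannot be told apart. Sox10 had 28 and 64 counts in control cells, 0 in clone A but 14 in clone B. Of the markers of oligodendrocyte precursors, Pdgfra and Cspg4 had at least 16 counts in every library, whereas Olig2 had 7 counts in control 1 and 0 in the other libraries. In the order control 1, control 2, clone A and clone B, Ptprz1 had 30, 21, 16 and 25 counts. In that order Nkx2-2 had 20, 52, 18 and 25, Olig1 had 12, 1, 0 and 0, and Gpr17 had 2, 0, 2 and 0. Among the 8 markers of myelinating cells, Mag, Mobp and Cldn11 were at 0 counts in all libraries, and Mbp had at most 2. Cnp had 62 and 68 counts in control cells but 35 and 20 in clones A and B, Mog had 11 to 18 counts and Myrf had 6 to 12.

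The deposited libraries were shallow, with 60951 to 104017 counts each. For genes with a mean of 500 or more, a library held 0.384% of the authors' mean count in the median. Levels are given as counts per M counts after TMM normalization (CPM), and 3 counts, the level at which a gene was taken to lie at the floor, stood for 29 to 48.2 CPM. Of the 141 genes, 132 were listed in the count files and 9 were not. The 132 genes took 1.00% of the counts of control 1 (exact 95% binomial interval 0.923 to 1.08), 0.929% of control 2 (0.871 to 0.989), 0.907% of clone A (0.845 to 0.972) and 0.949% of clone B (0.887 to 1.02). Both clones lay below or between the controls, and the intervals, which cover counting error only, overlapped. A total of 32 genes had enough counts for edgeR's quasi-likelihood test, with 26 to 236 counts over the 4 libraries. The other 100 listed genes had a median of 9.5 counts, and 4 of them had none.

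Across the 132 genes, the deposited counts and the authors' mean count had a Spearman correlation of 0.77. The genes are not independent, and both values come from the same cells. A gene's deposited counts, divided by its mean and by the median of this quotient over the genes with a mean of 500 or more, gave a ratio whose median over the 132 genes was 1.23. Slc2a6, a sugar transporter of lysosomes, stood farthest off, with a ratio of 46.7 at a mean of 329. Slc25a38, Slc37a4, Slc25a46 and Slc25a42 had ratios of 8.72, 7.40, 5.69 and 5.16, and 6 carriers in all had a ratio over 5. In the RefSeq table of the newer rat assembly GRCr8, while the counts rest on rn5, 4 of these 6 genes overlapped another protein-coding gene, against 26 of the 124 other genes that could be matched. Slc2a6 overlapped Cacfd1, Slc25a46 overlapped Sap130 and Slc25a42 overlapped Tmem161a. Whether reads of such pairs were mixed was not tested, and Slc25a38 and Slc37a4 overlapped no protein-coding gene there. The values of the 6 genes are uncertain. The kit kept the strand, but the strand option of the counting is not given in the sources used here, and the deposited counts were a small part of the authors' mean. Whether they came from reads of the strand opposite to each gene was not tested, and this limit holds for every count, level and fold change given here. Over all genes, 36.4% of 730 genes with a ratio over 10 overlapped a gene on the opposite strand, against 13.7% of 7485 others. For overlaps on the same strand the shares were 2.88% and 3.27%. This comparison is partial, because only 730 of the 1546 genes with a ratio over 10 had a strand in the RefSeq tables.

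**Figure D1:**
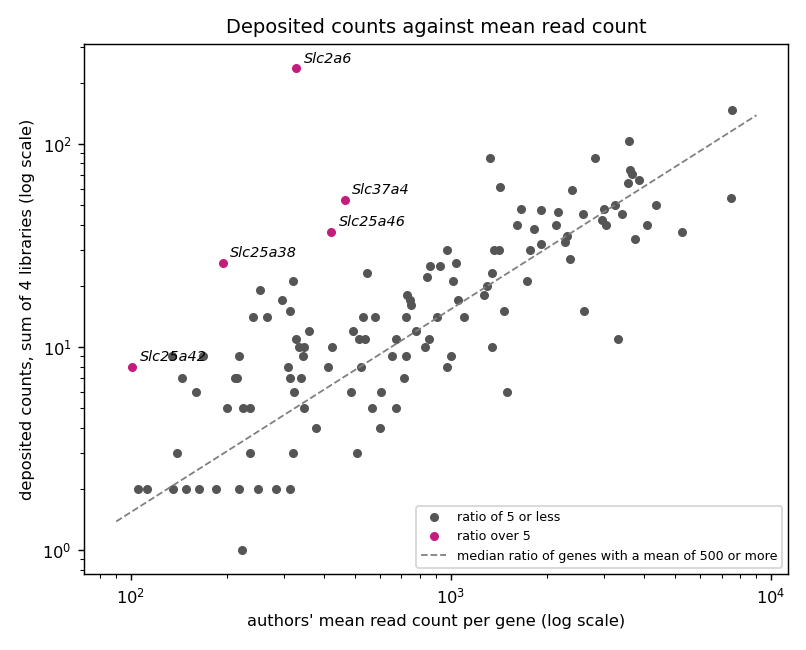
Deposited counts summed over the 4 libraries against the authors' mean read count, both on log scales, for 126 of the 128 listed solute carrier genes with a count. The dashed line is the median ratio over genes with a mean of 500 or more, and the 5 named genes lie more than 5 times above it, with Slc2a6 at 46.7 times.

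The first question was which carriers changed when Sox10 was lost. Slc35f1, an orphan member of the family that includes the nucleotide sugar transporters, fell from a clear level to no counts in either clone. Slc44a1, a choline transporter that feeds phospholipid synthesis, Slc22a23, an orphan member of the organic ion transporters, and Slc25a10, the mitochondrial dicarboxylate carrier, were lower in both clones but met only the unadjusted criterion. No carrier was higher by either criterion. The criteria were a change of at least 2-fold with an adjusted or an unadjusted p of 0.05 or less. With the adjusted p, 1 of the 32 tested genes was lower, where 2.5% of all 2438 tested genes were lower and 1.11% were higher. With the unadjusted p, 4 of 32 (12.5%) were lower, against 6.97% of all tested genes. Neither edgeR nor DESeq2 called a higher carrier with the adjusted p, and 4.63% of all tested genes were higher by the unadjusted criterion. With an unadjusted p under 0.05 and a change of any size, 4 carriers were lower and 0 were higher, against 8.2% and 6.52% of all tested genes.

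The 250 bases before the annotated start of each of these 4 genes are shown because the genes were lower together. The sequences are from RefSeq, build GRCr8, all on the plus strand, 5′ to 3′, and capitals mark GGGCGG or its reverse complement CCGCCC, a GC box.
Slc35f1, chr20:32572841-32573090: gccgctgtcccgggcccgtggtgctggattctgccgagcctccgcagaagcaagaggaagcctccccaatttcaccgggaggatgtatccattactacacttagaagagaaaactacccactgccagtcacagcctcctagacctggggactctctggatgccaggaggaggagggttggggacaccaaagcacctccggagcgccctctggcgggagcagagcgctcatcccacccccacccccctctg
Slc44a1, chr5:72858750-72858999: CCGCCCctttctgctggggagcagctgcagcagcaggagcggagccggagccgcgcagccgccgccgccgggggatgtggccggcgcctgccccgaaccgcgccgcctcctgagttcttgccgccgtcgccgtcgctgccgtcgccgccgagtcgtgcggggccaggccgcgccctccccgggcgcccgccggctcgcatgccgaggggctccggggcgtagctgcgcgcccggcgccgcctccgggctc
Slc22a23, chr17:30749195-30749444: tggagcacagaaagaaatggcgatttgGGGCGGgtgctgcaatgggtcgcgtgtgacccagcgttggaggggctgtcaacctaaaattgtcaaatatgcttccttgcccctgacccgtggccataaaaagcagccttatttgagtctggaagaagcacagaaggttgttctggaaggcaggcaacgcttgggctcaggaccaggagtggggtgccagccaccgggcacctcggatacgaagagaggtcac
Slc25a10, chr10:106264146-106264395: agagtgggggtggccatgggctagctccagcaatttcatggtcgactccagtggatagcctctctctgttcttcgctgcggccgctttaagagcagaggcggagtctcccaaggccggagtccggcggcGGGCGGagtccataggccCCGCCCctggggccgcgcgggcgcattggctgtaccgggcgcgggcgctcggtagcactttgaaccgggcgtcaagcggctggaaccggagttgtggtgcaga
The GC box was found once each for Slc44a1 and Slc22a23, at 2 places for Slc25a10 and not for Slc35f1, and 30.5% of all 33469 promoter windows of this length hold it on either strand. The Sox-type letters ACAAAG and ACAATG were not in these 4 windows on either strand, and 16.3% and 11.1% of all windows hold them. The windows were rich in G and C, with 62.4% for Slc35f1, 81.2% for Slc44a1, 56% for Slc22a23 and 66.8% for Slc25a10. The median was 62.4% over the 109 windows of the listed carriers (104 genes had at least 1 window), against 51.2% over all windows.

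Slc35f1 (ENSRNOG00000000412) had 20 and 28 counts in control cells and 0 in clones A and B. This made 321 and 271 CPM in the controls, and the groups did not overlap. Since the clones lay at 0, the change is given as a limit against the floor of 3 counts per library, and Slc35f1 was at least 8.62-fold lower, or at least 7.89-fold from the lower control alone (edgeR, adjusted p = 7.80e-04). The gene passed the filter on low counts through the controls. Without control 2 the adjusted p was 0.217, and without any other library it was 3.24e-04 or less. Over all alternatives that kept the gene it ranged from 5.75e-08 to 0.217.

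Slc44a1 (ENSRNOG00000017846) had 466 and 426 CPM in the controls against 197 in clone A and 147 in clone B, from 29, 44, 17 and 13 counts. The groups did not overlap, and clone B had the lowest level. The fitted level was 2.57-fold lower, with a log2 fold change of -1.36 (adjusted p = 0.0563 by edgeR, standard error 0.38, 95% interval -2.17 to -0.56). The adjusted p was 0.0441 with library totals alone, 0.0350 when only genes with 10 counts in every library were tested, and 0.398 with DESeq2, the lowest and highest over all alternatives being the last 2.

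Slc22a23 (ENSRNOG00000017210) had 18 and 43 counts in control cells and 12 in each clone. In CPM this was 289 and 416 against 139 and 136, so that the clones lay close together and below both controls. The log2 fold change was -1.38 (adjusted p = 0.0865 by edgeR, standard error 0.42). It was -1.09 without control 2 and -1.61 without control 1, and the adjusted p then was 0.470 and 0.0294. Over all alternatives the adjusted p ranged from 0.0294 to 0.557.

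Slc25a10 (ENSRNOG00000036693) had 225 and 116 CPM in the controls, only 57.8 in clone A and 22.7 in clone B. Clone B had 2 counts, which is under the floor, and control 1 was the highest. The gene passed the filter on low counts through the controls. The log2 fold change was -2.0 with a standard error of 0.79 (adjusted p = 0.217 by edgeR, and 0.196 to 0.793 over the alternatives). Leaving out single libraries moved it between -1.48 and -2.77.

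**Figure D2:**
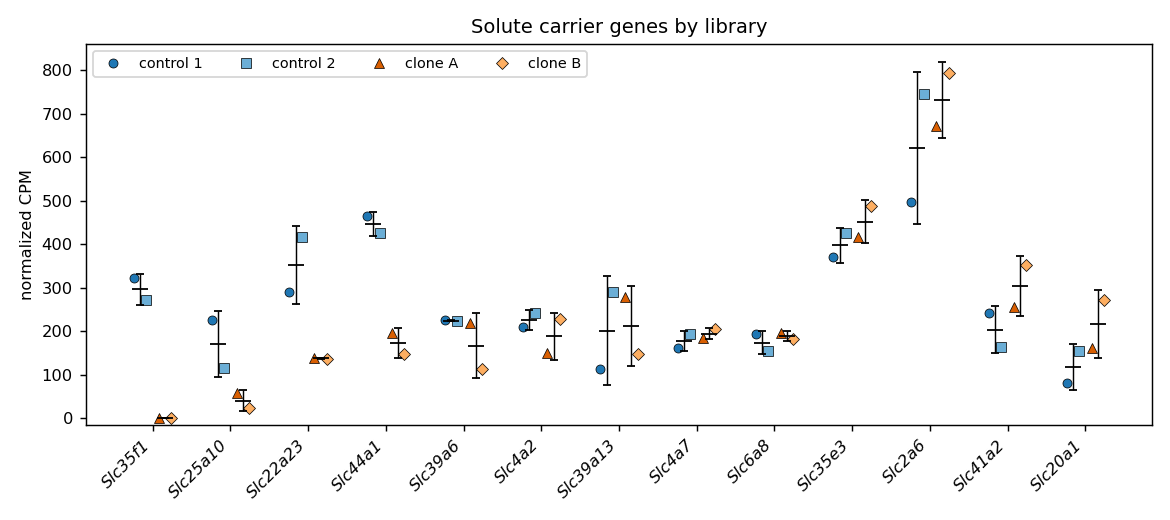
Normalized CPM of 13 solute carrier genes in each library, with the mean and SD of each group (n = 2) as black marks. Both clones lie at 0 for Slc35f1 and below both controls for Slc25a10, Slc22a23 and Slc44a1, while the groups overlap or lie close for most of the other genes.

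Over the 32 tested carriers, 13 log2 fold changes were below 0 and 19 were above, with a median of 0.17 against -0.01 over all tested genes. For 17 of the 32 (53.1%) the groups did not overlap, 8 lower and 9 higher in the clones. The share was 43.2% over all tested genes, 21.5% lower and 21.6% higher. Many of the carriers without overlap passed the filter on low counts through the group where they were high. Slc12a4, Slc25a24 and Slc9a3r1, like Slc35f1 and Slc25a10, passed through the controls, and Slc9a3r2 and Slc25a46 through the clones. Slc38a2, Slc25a4, Slc20a1 and Slc25a39 met its level in both clones but not in both controls. The share without overlap is therefore no measure of change. The precision set narrow limits to what could be seen. The standard error had a median of 0.55 on the log2 scale, the 95% interval lay within 4-fold in either direction for 19 carriers, and within 2-fold for 3, among them Slc2a6 and Slc35e3.

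**Figure D3:**
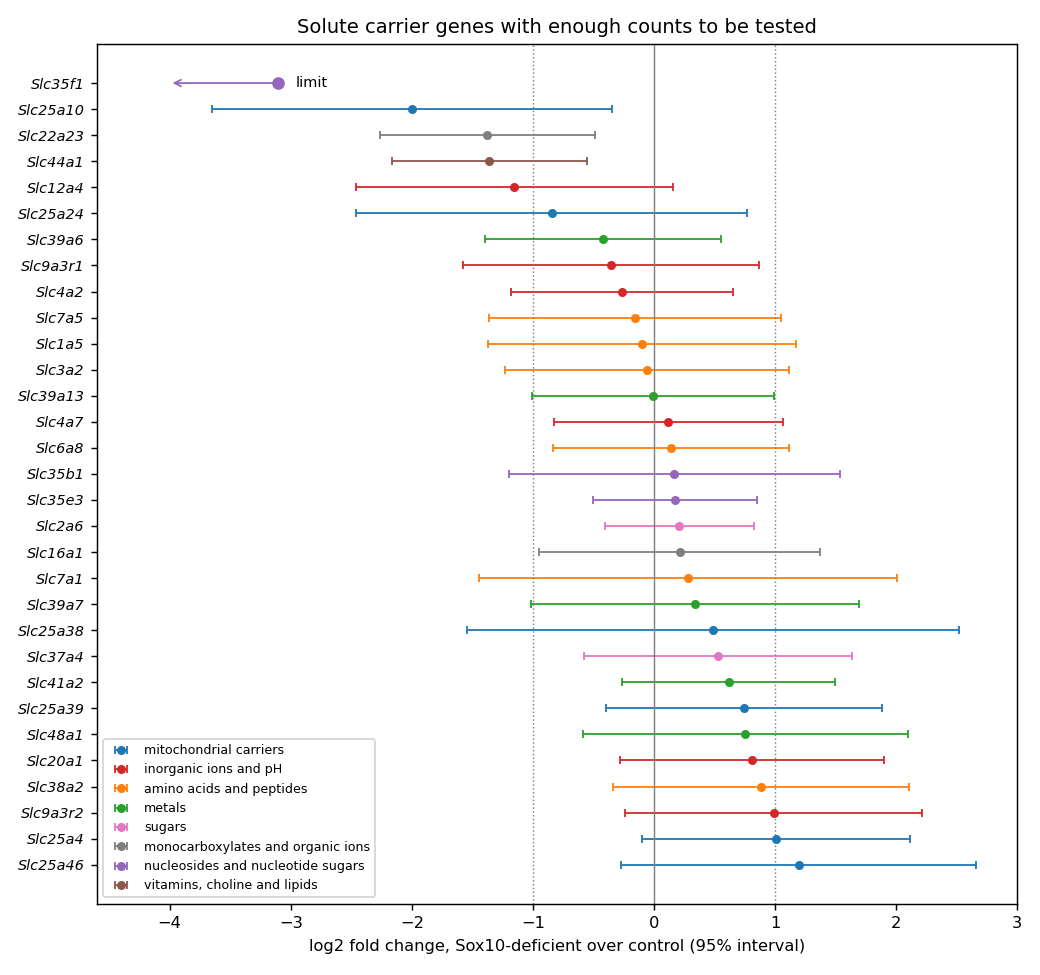
Log2 fold change of the clones over the controls with its 95% interval for 31 of the 32 tested solute carrier genes, coloured by transport class, with dotted lines at 2-fold. Slc35f1 is drawn at its limit of 8.62-fold with an arrow, and of the others the intervals of Slc25a10, Slc22a23 and Slc44a1 do not reach 0.

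Amino acid carriers bring in the building blocks of protein and glutathione. Of 22 genes of this class, 21 were listed and 6 were tested, of which none met a criterion. Slc3a2 and Slc7a5, the heavy and light chains of the large neutral amino acid exchanger, had log2 fold changes of -0.06 (95% interval -1.23 to 1.11) and -0.16 (-1.36 to 1.05). Slc1a5, which carries glutamine, had 145 and 106 CPM in the controls against 116 and 113 in the clones. Its interval of -1.37 to 1.17 leaves changes of 2-fold in either direction possible. Slc38a2, which carries small neutral amino acids, had 112 and 77.4 CPM in the controls versus 150 and 193 in the clones, without overlap, at a log2 fold change of 0.89 (adjusted p = 0.541 by edgeR, standard error 0.58). It met the level of the filter on low counts in both clones but not in both controls. Slc6a8, the creatine transporter, was between 155 and 197 CPM in all libraries. Slc7a1, a carrier of cationic amino acids, spread most among the controls, with 12 and 2 counts, against 9 and 11 in the clones.

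Of the 132 listed carriers, 3 were at 3 counts or fewer in both clones and above in both controls (Slc35f1, Slc41a1 and Slc25a5), where 1.97% of all genes with a count were. The reverse held for 4 carriers (Slc7a11, Slc1a4, Slc35a5 and Slc25a28), against 2.75%. Several amino acid carriers had too few counts to be tested. Slc7a11, the cystine and glutamate exchanger, had 3 and 2 counts in control cells versus 8 and 9 in the clones. Its pooled ratio of clones to controls was 3.22, with an exact 95% interval of 1.14 to 11.2 that covers counting error only. Slc1a4, which carries alanine, serine and cysteine, had 1 and 2 counts against 8 and 4, a ratio of 3.79 (1.02 to 20.9). Slc6a9, a glycine transporter, had 2 and 1 counts against 8 and 3, whereas Slc6a6, the taurine transporter, had 5 and 8 against 4 and 1. When genes were not filtered, the unadjusted p from edgeR was 0.0760 for Slc7a11, 0.102 for Slc1a4, 0.149 for Slc6a9 and 0.161 for Slc6a6, so that these differences did not pass the test. The glutamate transporters Slc1a2 and Slc1a3 of astrocytes, which were not in the set, had 0 counts in all libraries.

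Carriers of sugars and monocarboxylates serve energy supply. Slc2a6 had 498 and 745 CPM in the controls versus 671 and 794 in the clones, and the groups overlapped. Slc37a4, the glucose 6-phosphate translocase, had 128 and 126 CPM against 220 and 147, with a log2 fold change of 0.53 (adjusted p = 0.752 by edgeR, standard error 0.53), but both genes are among those with uncertain counts. Slc2a1, the glucose transporter of most cells, had 0 and 2 counts in control cells versus 2 and 7 in the clones, a pooled ratio of 4.27 with an interval of 0.883 to 40.6. Slc16a1, the monocarboxylate carrier that exports lactate from oligodendroglia, had 145 and 116 CPM in the controls versus 150 and 147 in the clones. Its log2 fold change was 0.21, and the 95% interval ran from -0.95 to 1.37. Of the 8 sugar carriers 2 were tested, and of the 7 carriers of monocarboxylates and organic ions 2 were tested, with Slc22a23 the only gene of both classes that met a criterion. Slc22a17, another organic ion transporter relative, had 4 to 6 counts in every library.

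Ion carriers set cell volume, phosphate and pH. Of 21 genes, 18 were listed and 7 were tested, and none met a criterion. Slc9a3r1 and Slc9a3r2 encode scaffold proteins and not carriers. Slc9a3r2 had 64.2 and 106 CPM in the controls versus 150 and 204 in the clones, and Slc9a3r1 had 145 and 136 against 104 and 113, so that neither overlapped and the directions were opposite. Slc9a3r2 passed the filter on low counts through the clones, and Slc9a3r1 through the controls. Slc20a1, a sodium phosphate cotransporter, had 5 and 16 counts against 14 and 24 (log2 fold change 0.81, standard error 0.52, adjusted p = 0.533 from edgeR). Slc12a4, a potassium chloride cotransporter, had 289 and 116 CPM in the controls against 69.4 and 102 in the clones. Its log2 fold change was -1.15 (adjusted p = 0.431 by edgeR, standard error 0.62), and control 1 stood above the rest. Slc12a2, the sodium potassium chloride cotransporter, had 9 and 11 counts against 4 and 8 and was not tested. The anion exchanger gene Slc4a2 and the bicarbonate cotransporter gene Slc4a7 had log2 fold changes of -0.27 (-1.18 to 0.65) and 0.12 (-0.83 to 1.06).

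Metal carriers move zinc, iron, magnesium and haem. All 22 genes were listed and 5 were tested, without a call. Slc41a2, a magnesium carrier, had 241 and 165 CPM in the controls versus 254 and 352 in the clones, a log2 fold change of 0.62 (-0.26 to 1.49). The zinc importers Slc39a6 and Slc39a10 had 225 and 223 CPM against 220 and 113, and 3 and 16 counts against 5 and 6. Slc39a13, a zinc carrier of the secretory pathway, spread widely within both groups, with 112 and 290 CPM in the controls versus 278 and 147 in the clones. Slc41a1, a further magnesium carrier, had 4 and 8 counts against 3 and 2, a pooled ratio of 0.395 (0.109 to 1.20). When genes were not filtered, Slc39a1, a zinc importer of the cell surface, met the unadjusted criterion. It had 11 and 9 counts in control cells versus 1 and 6 in the clones, with an unadjusted p of 0.0485 and an adjusted p of 0.705 from edgeR. This gene was chosen after its values were seen.

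The mitochondrial carriers of family 25 formed the largest class, with 29 genes, of which 26 were listed and 6 were tested. Slc25a10 was the only one that met a criterion. Slc25a4, an ADP and ATP exchanger, had 128 and 87.1 CPM in the controls versus 197 and 227 in the clones, with a log2 fold change of 1.01 (adjusted p = 0.407 by edgeR, standard error 0.53). Slc25a5, its close paralog, had 4 and 4 counts against 1 and 2, a pooled ratio of 0.355 (0.0607 to 1.48). The sequences of both genes are alike, and reads could be split between them. Slc25a39, linked to mitochondrial glutathione import, had 112 and 106 CPM against 185 and 181, a narrow spread in each group, at a log2 fold change of 0.74 (-0.40 to 1.88). Slc25a24, a carrier of ATP-Mg and phosphate, had 112 and 116 CPM against 80.9 and 45.4. Slc25a1, which exports citrate for lipid synthesis, had 3 and 9 counts in control cells versus 0 and 3 in the clones, a pooled ratio of 0.237 (0.0429 to 0.878) with an unadjusted p of 0.0937 from edgeR without a filter. Slc25a28, an iron carrier, had 2 and 2 counts against 4 and 6. At the threshold of the set, Slc25a42 and Slc25a45 had at most 4 counts in a library.

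Carriers of nucleosides and nucleotide sugars feed glycosylation in the secretory pathway. Of 21 genes, 20 were listed and 3 were tested, and the fall of Slc35f1 stood beside relatives that did not meet a criterion. Slc35e3, an orphan member of the family, had 369 and 426 CPM in the controls versus 416 and 488 in the clones. Its log2 fold change of 0.17 had an interval of -0.50 to 0.85. Slc35b1, a carrier of the endoplasmic reticulum, had 145 and 87.1 CPM against 69.4 and 181, and the clones lay on either side of the controls. Slc35a5 had 3 and 2 counts against 6 and 6. In the class of vitamins, choline and lipids, Slc44a1 was the only 1 of 10 genes that was tested. Slc19a2, a thiamine transporter, had 0 counts in both controls and 4 and 3 in the clones, and met the unadjusted criterion without a filter (adjusted p = 0.643 by edgeR). It was named after its values were seen. The vesicular class held Slc17a5, the lysosomal sialic acid carrier, with 2 counts in all.

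The levels were also summed over each class. The mitochondrial carriers summed to 1115 ± 57.8 CPM in the controls and 1213 ± 80.4 in the clones (SD, n = 2 each). Without Slc25a4 they summed to 1008 and 1002 CPM, so that the higher sum in the clones came from 1 gene. The amino acid carriers summed to 1162 ± 356 and 1387 ± 181 CPM. The metal carriers summed to 1758 ± 35.3 and 1598 ± 95 CPM, and the ion carriers to 1775 ± 101 and 1761 ± 364. In the class of vitamins, choline and lipids, the sum was 670 ± 38.6 CPM in the controls and 482 ± 217 in the clones. Without Slc44a1 the other 9 genes of that class summed to 224 and 310 CPM, so that the direction of the class sum came from 1 gene. The same held for monocarboxylates and organic ions, with 657 ± 111 and 492 ± 58.0 CPM, and with 304 and 355 CPM without Slc22a23. Of the 9 classes, 4 did not overlap between the groups, where 43.2% of all single tested genes did not. For the mitochondrial carriers, clone A at 1156.34 CPM barely exceeded control 1 at 1156.29 CPM. With 2 libraries a group no exact permutation test can go below a two-sided p of 0.333.

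**Figure D4:**
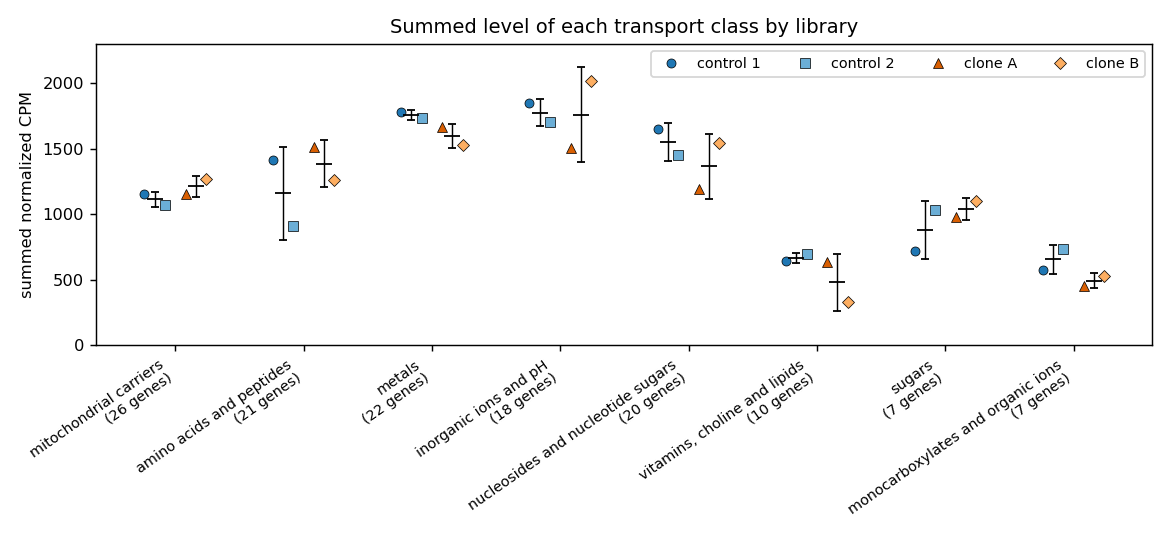
Summed normalized CPM of each transport class in each library, with the mean and SD of each group (n = 2) as black marks and the number of listed genes in brackets. The control and clone values lie close together in most classes, and clone B is lowest for vitamins, choline and lipids at 329 CPM.

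Genes that work beside the carriers were taken from lists chosen by function. Among 20 genes of glycolysis and the response to hypoxia, the pathway fed by glucose carriers, 14 were tested. All 14 had log2 fold changes above 0, and for 12 of them both clones lay above both controls, against 21.6% of all tested genes. Hk2, Pfkl and Vegfa met the level of the filter on low counts in both clones but not in both controls, and Car9 and Hif1a in neither control. For these genes the direction was partly set by the filter. Of the untested genes, Bnip3, Ldhb and Pfkfb3 had lower mean CPM in the clones, Pfkp and Pdk1 higher, and Tpi1 no counts. The list summed to 4304 and 4298 CPM in the controls, and to 9147 in clone A and 7484 in clone B. Pkm, which encodes pyruvate kinase, rose from 347 ± 122 to 1061 ± 233 CPM (SD, n = 2 each). Its log2 fold change was 1.65 (adjusted p = 0.00547 by edgeR, standard error 0.32). It was the only gene of the list called by the adjusted criterion. Pgk1, Car9 and Hif1a met the unadjusted criterion, with log2 fold changes of 1.23, 2.46 and 1.78, where 4.63% of all tested genes were higher by it. Car9, a carbonic anhydrase, had 4 and 2 counts in control cells versus 15 and 22 in the clones (adjusted p = 0.0607 from edgeR). Car9 and Hif1a passed the filter on low counts through the clones. Gapdh, a glycolytic enzyme with many near-identical copies in the genome, had a count ratio of 23.2 to the authors' mean and is uncertain.

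**Figure D5:**
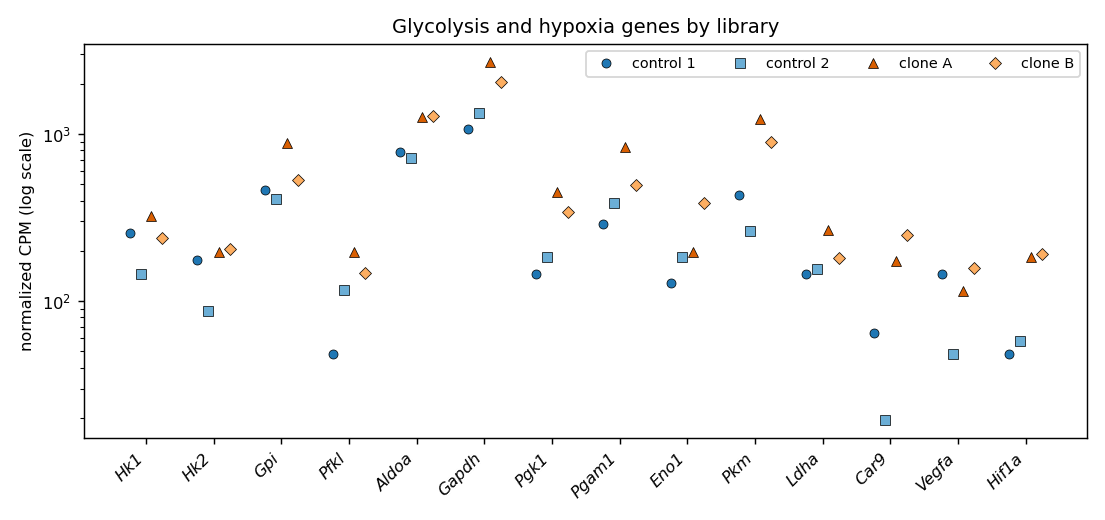
Normalized CPM, on a log scale, of the 14 tested genes of glycolysis and the response to hypoxia in each library. Both clones lie above both controls for 12 of the 14 genes, the exceptions being Hk1 and Vegfa.

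Of 20 genes of the ATF4 programme, which supplies amino acids under stress and acts on carriers such as Slc7a11, 7 were tested and none was called by the adjusted p with edgeR or DESeq2. Atf5 met the unadjusted criterion, with 4 and 2 counts in control cells versus 10 and 14 in the clones. It passed the filter on low counts through the clones. In all, 2 of the 7 genes were higher with an unadjusted p under 0.05, where 6.52% of all tested genes were. Of 19 genes of ion pumps and carrier partners, 9 were tested, and again none was called by the adjusted p with either tool, while 2 were higher with an unadjusted p under 0.05, against the same 6.52%. Atp1b3, a subunit of the sodium pump, had 1 and 6 counts against 14 and 16 and passed the filter through the clones. Bsg, the partner of the monocarboxylate carriers, had 19 counts in each control and 25 and 13 in the clones. Of 70 symbols of other transport proteins, 6 were tested, and Abcb1b and Abcc4, export pumps of the ABC family, met the unadjusted criterion with log2 fold changes of 2.07 and 1.29, where 4.63% of all tested genes were higher by it. Both passed the filter on low counts through the clones, and none of the 6 was called by the adjusted p with edgeR or DESeq2.

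Marker lists of other cell types had lower sums in both clones than in both controls. So did the list of oligodendrocyte precursors, which holds Sox10 itself, with 2216 and 2004 CPM in controls and 1445 and 1633 in clones. Sox10 alone had 450 and 620 CPM in controls and 0 and 159 in clones. The lower sum of this list therefore cannot be read apart from the edited gene. Of its 5 tested genes, 3 were lower and 2 were higher. Cspg4 was higher in both clones, at a log2 fold change of 0.93 (adjusted p = 0.196 by edgeR). The Schwann cell and neural crest list summed to 1269 and 1336 CPM in the controls and to 578 and 386 in the clones, with 2 of 3 tested genes lower by the unadjusted criterion, against 6.97% of all tested genes. The myelinating list summed to 968 to 1349 CPM in the controls and 420 to 682 in the clones, and the astrocyte list to 213 to 434 and 34.7 to 56.7. The astrocyte sum was nearly that of S100b alone, which had 26 and 22 counts in control cells versus 2 and 1 in the clones, and 4 of its 7 genes were at 0 in every library. By the adjusted criterion Ngfr, Cnp and S100b were lower, 1 each of the Schwann cell, myelinating and astrocyte lists, against 2.5% of all tested genes. Ngfr and S100b passed the filter on low counts through the controls. The neuron list summed to 128 to 174 CPM in the controls and 45.4 to 104 in the clones, the microglia list to 64.2 to 136 and 45.4 to 57.8, and the fibroblast list to 369 to 397 and 136 to 324. These sums were mostly those of Map2 (8, 17, 8 and 4 counts), Csf1r (4, 13, 5 and 4 counts) and Col1a1 (21, 34, 25 and 12 counts), given in the order control 1, control 2, clone A and clone B. In each of these 3 lists 3 of 5 genes were at 0 in every library, among them Tubb3 and Rbfox3 of neurons, Cx3cr1 and Itgam of microglia, and Dcn and Lum of fibroblasts. The part of these markers in the lower carriers was not tested.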

How the data were processed

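Total RNA of 2 control and 2 Sox10-deficient samples had been made into 4 libraries with a stranded mRNA kit. Alignment by the authors used STAR 2.5.1 and the rn5 genome, and uniquely mapped reads were tallied in HTSeq and deposited whole counts per gene symbol. From the authors' own DESeq2 table only the mean read count was taken, a normalized mean rounded by the authors and treated as a score, and its fold changes and p-values were left aside. The methods name Ensembl gene identifiers for the counting, while the deposited count files list symbols, and the strand option is not given in the sources used here. Groups were taken from the sample titles.

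The test was edgeR 4.0.16 under R 4.3.3 with condition as the sole term, after filterByExpr and TMM, by glmQLFit and glmQLFTest. Benjamini-Hochberg adjustment covered 2438 genes, and standard errors and 95% intervals follow from the F statistic. Where nothing names separate cultures, p-values measure only the spread between these samples. Alternatives were DESeq2 1.42.0, other scalings and filters, a replicate block and each library left out. The script was tested on simulated data. Transport classes follow the family number alone, also for symbols such as Slc4a1ap and Slc7a6os. Slc5 counts as sugars and Slc6 as amino acids, though some of their members carry other solutes. Named were all carriers that met a criterion, the 12 tested ones with the most counts, a list of glial and growth carriers, those at 3 counts or fewer in one group and above in both libraries of the other, and those at the threshold, of which 2 are not reported here. Members and lists were chosen with earlier results of these data known. Names and neighbours came from RefSeq (GRCr8), where 130 of 132 listed symbols matched, and exact intervals, for counting error only, came from scipy 1.17.1 under Python 3.11.15.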

Additional observations from a re-analysis of the deposited data

How the results depend on the processing

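The number of lower carriers by the adjusted criterion was 1 in most settings. It was 2 with library totals alone and 2 with at least 10 counts in every library, which left 11 carriers to test and removed Slc35f1, and it ranged from 0 to 2 when single libraries were left out. By the unadjusted criterion the number of lower carriers was 2 with at least 10 counts in every library and ranged from 3 to 4 without single libraries. The number of higher carriers by it was 1 without a filter, where 128 carriers were tested, and ranged from 0 to 1 without single libraries. Where a library was left out, the lone sample of its group is assumed to vary like the other group. The median log2 fold change was 0.0079 without a filter and ranged from 0.060 to 0.26 without single libraries. The cause was not tested. The carriers took 0.902% of the control counts and 0.855% of the clone counts without Slc2a6. With the replicate number as a block, 1 carrier was lower by the adjusted and 4 by the unadjusted criterion, the same numbers as without it. The samples share only a number, and deviations of same-numbered samples correlated by 0.12. The low deposited counts kept 100 of 132 listed genes from passing the filter of the test.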

Other observations

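Slc symbols outside the set held some of the largest deposited counts of the family, although the authors' mean count was low. Slc24a5 had 52 and 126 counts in control cells versus 100 and 151 in the clones, at an authors' mean of 10. Slc39a5 had 412 counts in all at a mean of 49, Slc5a2 had 330 at a mean of 4, and Slc16a11 had 256 at a mean of 5. Slc18a2 had 204 counts at a mean of 7 and overlapped no protein-coding gene in the RefSeq table of GRCr8. Slc26a1 and Slc3a1 had 197 and 196 counts at means of 27 and 8. In the same table, Slc39a5 overlapped Ankrd52, Slc5a2 overlapped Rusf1, Slc26a1 overlapped Idua and Slc3a1 overlapped Prepl, in each case with the partner on the opposite strand. Slc12a7, a potassium chloride cotransporter with a mean of 83, had 4 and 22 counts in control cells versus 1 and 0 in the clones, and control 2 held most of them.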
